A study of Mus musculus with 5 samples.

Results

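The enzymes of heme biosynthesis were examined in myeloid progenitors of mice with and without a deletion in Bcor. The 8 genes (Alas1, Alas2, Alad, Uros, Urod, Cpox, Ppox and Fech) were taken by name as enzymes of the pathway, by a rule that uses no measured value, and were 8 of the 52550 genes in the count table. RNA was measured by QuantSeq, which reads the 3′ end of polyadenylated transcripts, in Lin-cKit+Sca1- (KL) cells, the sorted bone marrow fraction that holds committed myeloid progenitors.

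There were 3 BcorΔE9-10 libraries (genotype scl-Cre-ERT +; Bcorfl/y) and 2 BcorWT libraries (scl-Cre-ERT +; Bcorwt/y). Both genotypes carried the same Cre recombinase, driven by an Scl (Tal1) regulatory sequence active in haematopoietic stem cells, and both received intraperitoneal tamoxifen at 1 mg per day for 5 days from an age of 3 to 6 months. In BcorΔE9-10 mice the recombination removes exons 9 and 10 of the X-linked Bcor gene. Cells were collected at 20 weeks after tamoxifen, after red cells had been lysed and lineage-positive cells, including those with the erythroid antigen Ter-119 and the myeloid antigens CD11b and Gr-1, had been depleted.

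Heme is built from glycine and succinyl-CoA by a chain of enzymes that starts and ends in the mitochondrion and runs through the cytosol in between. The first step, 5-aminolevulinate synthase, limits the rate and has 2 genes: Alas1, used by all cells and repressed by heme itself, and Alas2, the erythroid form, driven by GATA1 and controlled by iron at the level of translation. Myeloid cells need heme for the peroxidases and the oxidase of their granules and phagosomes, while red cell precursors need far more of it for globin.

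The libraries held 5998924 to 8303999 counts. Kit, the receptor used in the sort, was read at 49.4 to 53.4 CPM (counts per 1e+06 counts, scaled by TMM) in BcorΔE9-10 and at 18.2 and 19.6 CPM in BcorWT, and rose by 1.43 ± 0.173 (SE) on the log2 scale (adjusted p = 9.8e-05 in limma). Markers of mature neutrophils were abundant in every library, and the 10 listed summed to 149640 to 173550 CPM in BcorΔE9-10 and to 216250 and 228655 CPM in BcorWT. Of these 10 genes, 6 fell in limma and none rose, beside 4.09% of all genes called lower. One of the 6, Mmp9, a gelatinase of neutrophil granules, lost its call with DESeq2 (adjusted p = 0.189), with total counts alone (adjusted p = 0.0591) and without BcorΔE9-10 library 2 or 3 or BcorWT library 1 (-0.18). Camp, the cathelicidin of neutrophil granules, named after its value was seen, went the other way (log2 fold change 0.25, adjusted p = 0.114) and was called higher with total counts alone, without the filter and without BcorWT library 2. The BcorWT libraries also differed from each other: library 1 held 830 CPM of Retnlg and 804 CPM of Mmp8, both secretory genes of maturing neutrophils picked here after their values were seen, against 260 and 277 CPM in library 2. Counts at the 3′ end of Bcor lie outside the deleted exons and do not check the genotype labels. They were 196, 168 and 185 in BcorΔE9-10 and 83 and 109 in BcorWT (log2 fold change 0.78 ± 0.218, adjusted p = 0.0313, limma), but its call was lost on leaving out any 1 library other than BcorWT library 2 (0.54 to 1.01 over the omissions), and with a correction for GC content the log2 value was 0.39 (adjusted p = 0.277).

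Sequence upstream of the genes is shown for Alas1, the member that was called, for Alas2, its erythroid counterpart, and for Cpox, which had the next largest fold change among the 6 members tested. Windows of RefSeq (GRCm38.p6) were matched for 7 of the 8 members, 10 windows in all, and the 250 bases before each start were searched on both strands for GATAA (read by the erythroid factor Gata1), the motif of nuclear respiratory factor 1 (NRF1, a palindrome with 1 free base) and CCACCC (Krüppel-like factors). The windows of Alas1 lie within annotated exons of its longer transcripts, so only its NRF1 matches are given, each with 10 flanking bases per side, on the minus strand at chr9:106247935-106247964 and chr9:106247906-106247935. The Alas2 sequence is chrX:150547167-150547374 and the Cpox sequence chr16:58669958-58670207, both on the plus strand and outside annotated exons. Capitals mark the motif, NRF1 in Alas1 and the reverse complement of GATAA in the other two.
Alas1 first match: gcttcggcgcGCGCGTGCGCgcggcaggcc
Alas1 second match: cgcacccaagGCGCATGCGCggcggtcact
Alas2: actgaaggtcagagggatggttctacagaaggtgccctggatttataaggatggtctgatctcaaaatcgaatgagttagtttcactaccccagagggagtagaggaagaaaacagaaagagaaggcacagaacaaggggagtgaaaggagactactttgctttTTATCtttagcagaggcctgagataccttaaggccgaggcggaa
Cpox: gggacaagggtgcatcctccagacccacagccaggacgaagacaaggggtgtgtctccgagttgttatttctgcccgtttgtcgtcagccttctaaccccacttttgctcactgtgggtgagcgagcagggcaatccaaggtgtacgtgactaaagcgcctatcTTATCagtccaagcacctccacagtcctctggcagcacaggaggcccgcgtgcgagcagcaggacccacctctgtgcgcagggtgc

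The NRF1 motif was present in 3.74% of the 32851 promoters in the table, and among the members it was found in Alas1 (2 matches that share 1 flanking base and no motif base) and in Uros (1 match). GATAA was present in 22.6% of promoters, and was found in Alas2, Cpox and a second window of Uros. CCACCC, present in 28.1% of promoters, had 1 match in Alas1 and 3 in Alas2, the latter overlapping each other by 1 base and lying within the annotated first exon. No match to any of these motifs was found in the windows of Alad, Urod and Ppox. A match describes letters only and does not show that a factor binds there.

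Of the 8 enzymes, 6 had enough counts to be tested, and 1 of these rose (Alas1), none fell and 5 did not pass an adjusted p of 0.05. Over all 11766 genes tested, limma called 1189 (10.1%), 708 higher (6.02%) and 481 lower (4.09%) in BcorΔE9-10. The median log2 fold change of the 6 was 0.08, beside 0.00 (0.0043) over all genes tested, with 4 positive and 2 negative. Summed over the 8 genes, the level was 155, 145 and 156 CPM in BcorΔE9-10 and 88.6 and 112 CPM in BcorWT. Without Alas1 the other 7 summed to 60.5, 61.0 and 67.1 CPM and to 58.8 and 52.0 CPM, so most of the gap in the total lay in Alas1.

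**Figure D1:**
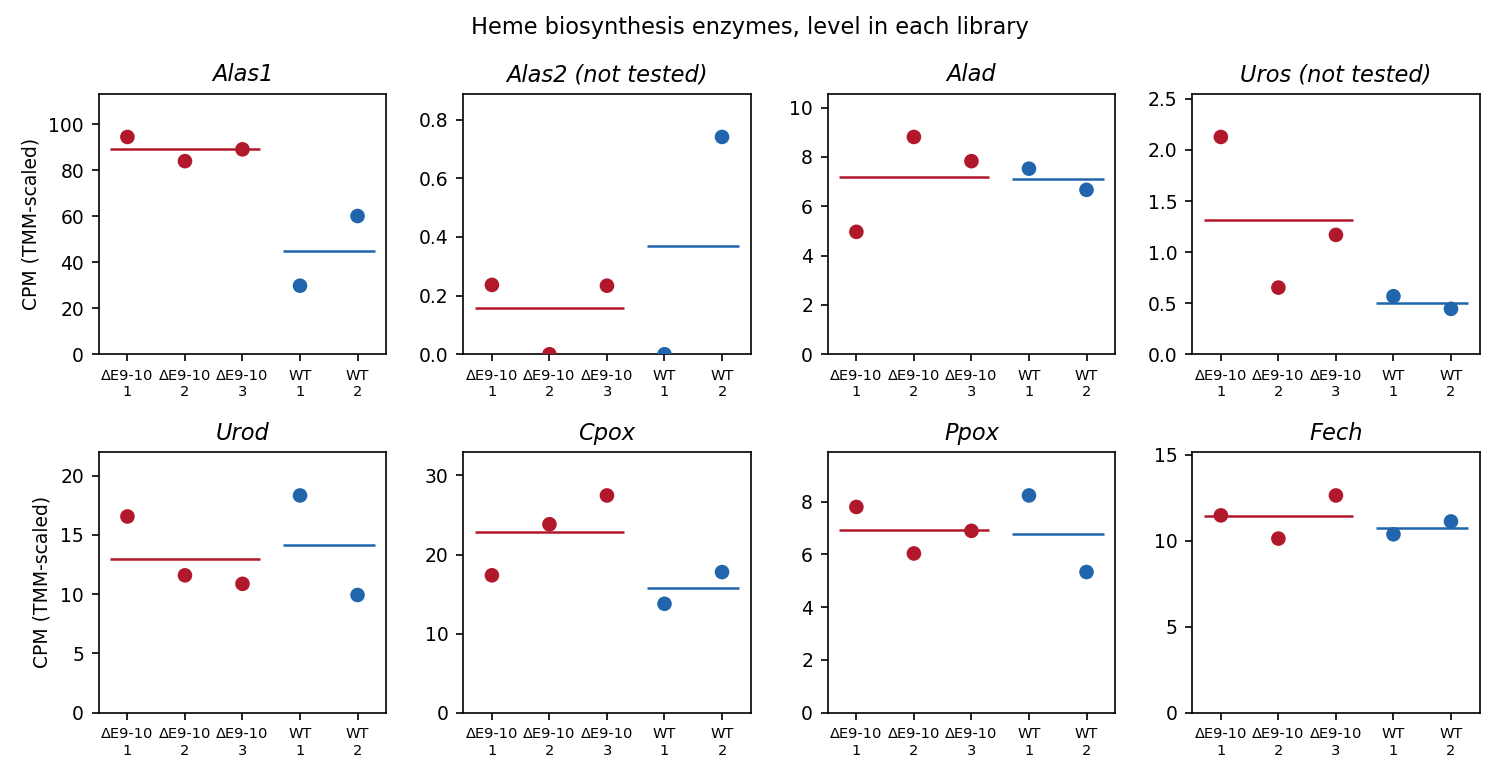
Each panel plots 1 enzyme, with TMM-scaled CPM on the vertical axis (linear, from 0) and the 5 libraries on the horizontal axis, BcorΔE9-10 in red and BcorWT in blue, points for libraries and lines for group means. Alas1 was the only member tested whose groups did not overlap, with 84.0 to 94.6 CPM against 29.8 and 60.2 CPM.

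Alas1 (ENSMUSG00000032786, mm10, chr9:106233455-106248654, minus strand) encodes the housekeeping form of the rate-limiting first enzyme. It had 800, 515 and 763 counts in BcorΔE9-10 and 210 and 406 in BcorWT, or 94.6, 84.0 and 89.2 CPM against 29.8 and 60.2 CPM. The BcorΔE9-10 libraries lay close together and all above both BcorWT libraries, while the BcorWT libraries lay 2.02-fold apart. The group means were 89.3 ± 5.26 CPM (SD, n = 3) and 45.0 ± 21.5 CPM (SD, n = 2).

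The log2 fold change of Alas1 was 1.08 ± 0.205 (SE), with a 95% interval of 0.65 to 1.51 (1.57-fold to 2.86-fold) and an adjusted p of 0.00312 in limma. edgeR's quasi-likelihood test gave 0.99 (adjusted p = 0.00739), with 11.2% of all genes called, and DESeq2 gave 0.97 (adjusted p = 0.000291), with 10.9% called. A fold change at least this large in either direction was seen in 8.68% of the genes tested, and groups that did not overlap were seen in 22.6% with BcorΔE9-10 higher, as for Alas1, and in 20.3% with it lower. The size of the difference rested on which BcorWT library was used. Without BcorWT library 1 the log2 value was 0.56 (adjusted p = 0.0531), which missed the threshold, and without BcorWT library 2 it was 1.59 (adjusted p = 8.4e-06). A gap between the 2 BcorWT libraries at least as large as that of Alas1, with library 2 higher, was seen in 4.02% of genes tested.

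**Figure D2:**
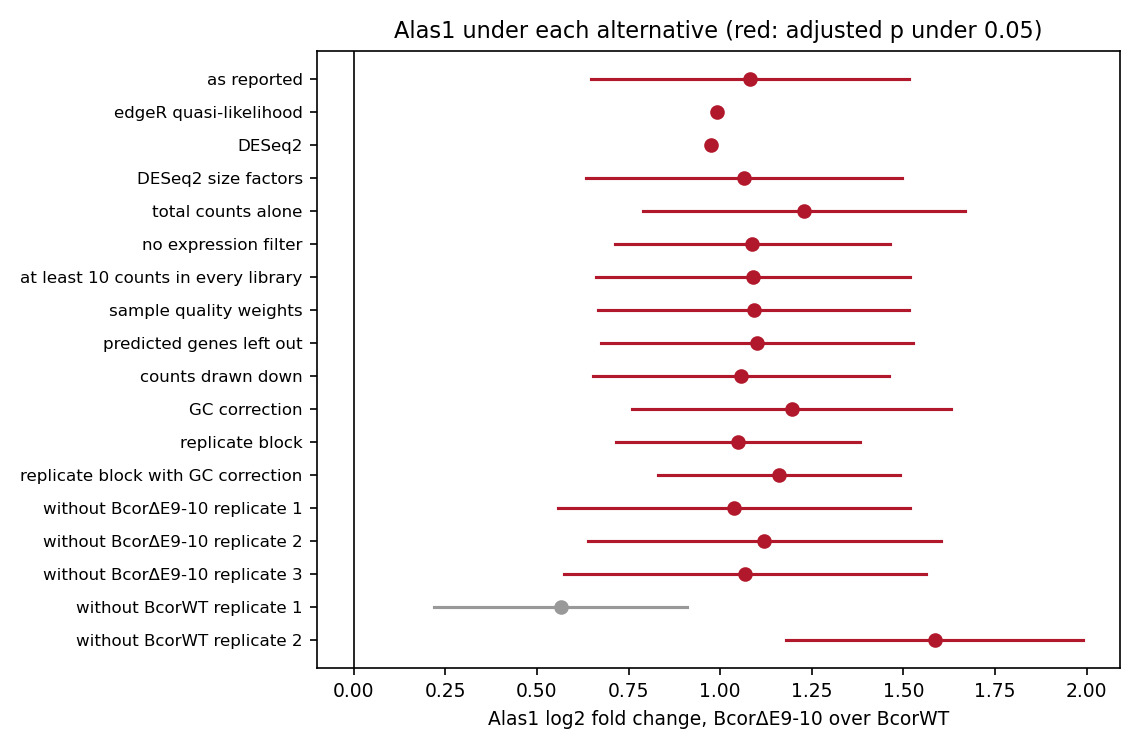
The log2 fold change of Alas1 (horizontal axis) under each alternative processing (vertical axis), points for estimates and bars for 95% intervals where limma gave one, red where the adjusted p was under 0.05 and grey where it was not. All values lie above 0, from 0.56 without BcorWT replicate 1 to 1.59 without BcorWT replicate 2, and the former alone misses the threshold.

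Alas2 (ENSMUSG00000025270, mm10, chrX:150547375-150570638, plus strand), the erythroid form of the same enzyme, had 2, 0 and 2 counts in BcorΔE9-10 and 0 and 5 in BcorWT, 9 in all. These were too few for the expression filter, and neither group stood above the other. Pooled per group this was 0.180 per 1e+06 counts (exact 95% Poisson interval 0.0490 to 0.460) in BcorΔE9-10 and 0.341 (0.111 to 0.795) in BcorWT. Such intervals cover counting error only. A library with no count still allows a level of up to 3 counts, 0.351 to 0.490 CPM in these libraries. The 3′ end of Alas2 overlaps Apex2, a DNA repair gene on the other strand with 20 to 60 counts, and the strand setting of the counting is not given in the sources used here, so even these few reads could belong to either gene. Without the filter limma gave Alas2 a log2 fold change of -0.31 (adjusted p = 0.887).

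Alas2 was thus at or near the limit of detection in cells where other erythroid genes were read. Of 26 listed erythroid markers 25 were in the table, 13 were tested and 1 rose in limma: Car1, a carbonic anhydrase of early erythroid cells, had 56, 144 and 193 counts against 17 and 19 (log2 fold change 2.46 ± 0.741, adjusted p = 0.0443, limma). Over all genes limma called 6.02% higher. That call was lost when any 1 of 4 libraries was left out, all but BcorΔE9-10 library 1, with sample quality weights (2.39, adjusted p = 0.0873) and with the GC correction (2.28, adjusted p = 0.0617). The number called depended on the tool and the setting, and in limma it ran from 0 with the GC correction, with quality weights or without any 1 of 3 libraries (BcorΔE9-10 library 2 or 3 or BcorWT library 1) to 4 with total counts alone, 6 without BcorΔE9-10 library 1 and 8 of 24 without the filter. Over all genes, limma called 1210 of 11766 higher with total counts alone, 636 of 11475 without BcorΔE9-10 library 1 and 790 of 19399 without the filter. edgeR called 6 of the 13 higher, beside 7.05% of all genes: the globins Hbb-bt, Hba-a1 and Hba-a2, the carbonic anhydrases Car1 and Car2, and Icam4, a red cell adhesion molecule. DESeq2 called Car1 and Car2, beside 752 of 11766 genes called higher. Car2, Icam4 and Hba-a2, named after their values were seen, had log2 fold changes of 1.24, 1.32 and 1.69 in limma (adjusted p = 0.0942, 0.0753 and 0.0904). With 1 library left out Car2 ran from 0.90 to 1.74 and Hba-a2 from 0.99 to 2.32, and limma called both without BcorΔE9-10 library 1 (adjusted p = 0.00196 and 0.00348). No marker of the list was called lower by any of the 3 tools. The median of the 13 was 1.37, and it ran from 0.90 without BcorWT library 1 and 0.99 without BcorΔE9-10 library 3 to 2.09 without BcorΔE9-10 library 1 and 2.32 without BcorWT library 2. The list summed to 83.7, 174 and 291 CPM in BcorΔE9-10 and to 41.9 and 80.6 CPM in BcorWT.

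Both adult globins were highest in BcorΔE9-10 library 3. Hbb-bt, a beta globin, and Hba-a1, an alpha globin, each have a near-identical copy that can share reads. Hbb-bt had 69, 115 and 292 counts against 14 and 65 (log2 fold change 1.98, adjusted p = 0.081, limma), and Hba-a1 had 122, 155 and 582 against 38 and 103 (1.71, adjusted p = 0.0862). edgeR put both under the threshold (adjusted p = 0.0438 and 0.0365) and DESeq2 did not (adjusted p = 0.296 and 0.256). With 1 library left out, Hbb-bt ran from 0.83 to 3.08 and Hba-a1 from 0.94 to 2.44, and limma called both without BcorΔE9-10 library 1 (2.58 and 2.26, adjusted p = 0.00358 and 0.00561). Klf1, the erythroid Krüppel-like factor, had 5, 10 and 8 counts against 0 and 2. The erythropoietin receptor gene Epor had at most 2 in any library, and neither gene was tested.

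Alas1 and the erythroid sum were both lowest in BcorWT library 1, next lowest in BcorWT library 2 and higher in every BcorΔE9-10 library, and they differed in order among the BcorΔE9-10 libraries. BcorΔE9-10 library 1 and BcorWT library 2 had nearly the same erythroid sum, 83.7 and 80.6 CPM, and had 94.6 and 60.2 CPM of Alas1. The erythroid sum varied from 83.7 to 291 CPM among BcorΔE9-10 libraries whose Alas1 varied from 84.0 to 94.6 CPM. BcorWT library 1, the lowest in both, was the library with more Retnlg and Mmp8. The part of these markers, and of the neutrophil markers, in the difference of Alas1 was not tested. In bulk RNA, fewer cells of a type and less RNA per cell cannot be told apart.

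**Figure D3:**
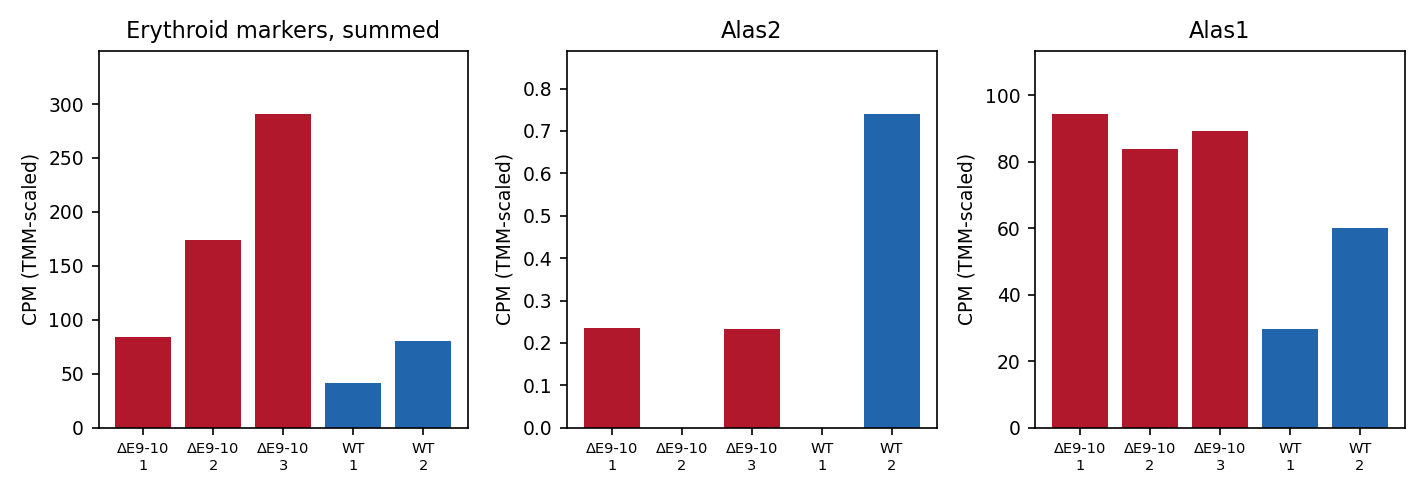
Bars give TMM-scaled CPM (linear axes from 0) in each of the 5 libraries for the summed erythroid markers, for Alas2 and for Alas1, BcorΔE9-10 in red and BcorWT in blue. The erythroid sum runs from 41.9 to 291 CPM and peaks in BcorΔE9-10 library 3, Alas2 reaches at most 0.741 CPM, and Alas1 is level over the BcorΔE9-10 libraries.

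The cytosolic steps that follow showed no difference past the threshold. Alad (ENSMUSG00000028393, mm10, chr4:62509169-62519918, minus strand) encodes aminolevulinate dehydratase, the zinc enzyme that joins a pair of aminolevulinate molecules into porphobilinogen and is inhibited by lead. It had 42, 54 and 67 counts in BcorΔE9-10 and 53 and 45 in BcorWT, or 4.96, 8.81 and 7.83 CPM against 7.53 and 6.67 CPM. Both BcorWT values lay inside the range of the BcorΔE9-10 values. Its log2 fold change was -0.05 ± 0.316 (adjusted p = 0.943), with an interval of -0.72 to 0.62 (0.608-fold to 1.53-fold).

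Uros (ENSMUSG00000030979, mm10, chr7:133686243-133710072, minus strand), uroporphyrinogen III synthase, closes the ring, and its loss in people causes congenital erythropoietic porphyria. It had 18, 4 and 10 counts in BcorΔE9-10 and 4 and 3 in BcorWT, too few for the filter. Pooled, this was 1.44 per 1e+06 counts (exact 95% Poisson interval 0.984 to 2.03) against 0.477 (0.192 to 0.983). These intervals fall just short of meeting, but they leave out the spread between libraries, and BcorΔE9-10 library 1 alone gave 18 of the 32 reads. In CPM, at 0.653 against 0.568, the lowest BcorΔE9-10 library was close to the higher BcorWT library. Without the filter limma gave a log2 fold change of 1.19 ± 0.848 (adjusted p = 0.499).

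Urod (ENSMUSG00000028684, mm10, chr4:116989965-116994413, minus strand), uroporphyrinogen decarboxylase, trims the side chains of the ring. It had 140, 71 and 93 counts in BcorΔE9-10 and 129 and 67 in BcorWT, or 16.5, 11.6 and 10.9 CPM against 18.3 and 9.93 CPM. The highest and the lowest of the 5 values were both BcorWT, the reverse of Alas1 in that BcorWT library 1 was the higher. Its log2 fold change was -0.08 ± 0.278 (interval -0.66 to 0.51, adjusted p = 0.901). Of the 30-base words in the last 300 bases of its transcripts, 15.5% also occur in other genes, so its counts may hold or lose shared reads.

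Cpox (ENSMUSG00000022742, mm10, chr16:58670292-58717636, plus strand), coproporphyrinogen oxidase of the mitochondrial intermembrane space, takes the pathway back to the mitochondrion. It had 147, 146 and 235 counts in BcorΔE9-10 and 97 and 120 in BcorWT, or 17.4, 23.8 and 27.5 CPM against 13.8 and 17.8 CPM. The lowest BcorΔE9-10 library lay just under the higher BcorWT library. The log2 fold change of 0.52 ± 0.235 (95% interval 0.02 to 1.02) had an unadjusted p of 0.0425 and an adjusted p of 0.179 in limma. Unadjusted p-values under 0.05 were found for 25.3% of all genes tested, and for 2 of the 6 enzymes. The 3′ end of Cpox is poor in GC (33.3%), and with a correction for GC content its log2 value was 0.32 (adjusted p = 0.437). Of the words at its transcript end, 13.7% also occur in other genes.

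Ppox (ENSMUSG00000062729, mm10, chr1:171275990-171281186, minus strand), protoporphyrinogen oxidase of the inner mitochondrial membrane, had 66, 37 and 59 counts in BcorΔE9-10 and 58 and 36 in BcorWT, or 7.80, 6.04 and 6.90 CPM against 8.24 and 5.33 CPM. All BcorΔE9-10 values lay between the BcorWT values. Its log2 fold change was 0.06 ± 0.308 (interval -0.59 to 0.71, adjusted p = 0.929).

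Fech (ENSMUSG00000024588, chromosome 18), ferrochelatase, puts iron into protoporphyrin IX as the last step. It had 97, 62 and 108 counts in BcorΔE9-10 and 73 and 75 in BcorWT, or 11.5, 10.1 and 12.6 CPM against 10.4 and 11.1 CPM. It varied least of the 6 tested members by the ratio of the highest to the lowest CPM, and the groups overlapped. The log2 fold change was 0.10 ± 0.238 (interval -0.41 to 0.60, adjusted p = 0.847), and 30.6% of the words at its transcript end are shared with other genes.

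**Figure D4:**
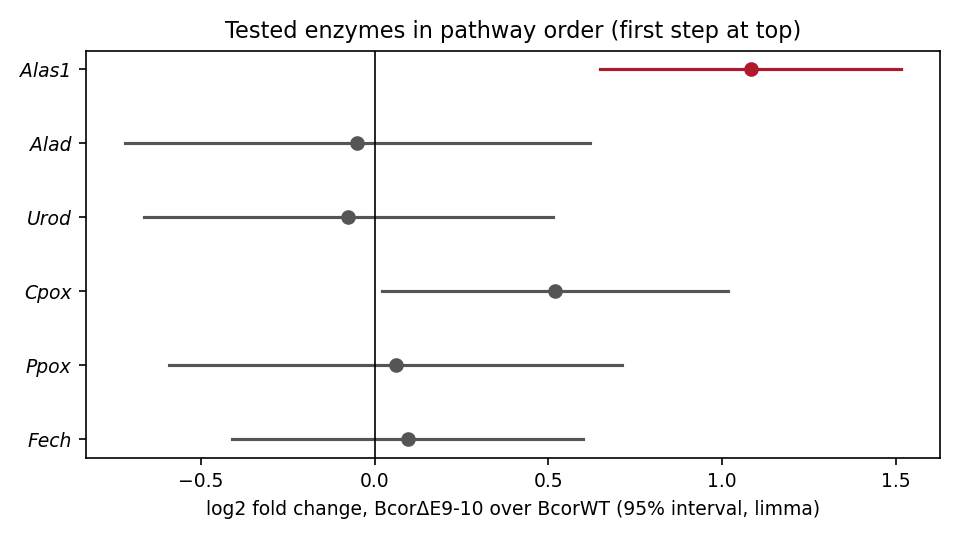
The log2 fold change of BcorΔE9-10 over BcorWT (horizontal axis) with its 95% limma interval for the 6 tested members, in pathway order from the first step at the top, red where called. The interval of Alas1 (0.65 to 1.51) lies wholly above 0, that of Cpox starts at 0.02, and those of the others span 0.

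The genes around the enzymes were read from lists of related function, chosen with earlier results of these data known. Over all genes tested limma called 6.02% higher and 4.09% lower, the shares that stand beside each count here. Of 18 genes for mitochondrial transport and cofactors of heme synthesis 16 were tested, none rose and 1 fell, with a median log2 fold change of -0.03 that was 0.038 without BcorΔE9-10 library 3 and between -0.023 and -0.0063 without each of the others. That gene was Sfxn1, a mitochondrial serine carrier, at 1484, 1039 and 1400 counts against 1636 and 1652 (-0.49 ± 0.107, adjusted p = 0.008). Slc25a38, which brings in the glycine that Alas1 uses, had a value of -0.01 (adjusted p = 0.982), and Slc25a37 (mitoferrin 1, the mitochondrial iron importer) 0.09 (adjusted p = 0.75). The porphyrin transport gene Tmem14c had -0.25 (adjusted p = 0.127) and the mitochondrial transporter gene Abcb10 had 0.37 (adjusted p = 0.13). With total counts alone limma called Abcb10 higher.

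Of the 14 genes of iron uptake, storage and sensing, 12 were tested and limma called none (median -0.01, and -0.13 without BcorWT library 1), with an unadjusted p under 0.05 for 4. edgeR also called none, while DESeq2 called 2 lower, the ferritin subunits Fth1 and Ftl1, each at -0.38 (adjusted p = 0.0493 for both). Over all genes DESeq2 called 528 of 11766 lower. Limma gave these, named after their values were seen, -0.35 and -0.36 (adjusted p = 0.0842 and 0.0778), called both without BcorWT library 2 (-0.58 and -0.52) and neither without BcorWT library 1 (-0.13 and -0.20, adjusted p = 0.646 and 0.478). Single genes passed in other limma settings, the iron exporter Slc40a1 lower with the GC correction and the iron chaperone gene Pcbp2 higher with total counts alone and without BcorWT library 2, both also named after their values were seen. Tfrc, the transferrin receptor, had 0.33 (adjusted p = 0.174). Of the 15 iron-sulphur cluster genes, all tested, 1 rose and none fell in limma, and the median of 0.17 was 0.0065 without BcorWT library 1, 0.049 without BcorΔE9-10 library 2 and 0.27 without BcorWT library 2. The gene that rose was Iscu, the scaffold on which the clusters are built, with 439, 435 and 551 counts against 177 and 216 and no overlap (1.12 ± 0.182, adjusted p = 0.00113).

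Of the 15 genes of heme breakdown, export and sensing, 11 were tested, 1 rose and none fell in limma (median -0.11, and -0.18 to -0.21 without BcorΔE9-10 library 1 or 3 or BcorWT library 1). DESeq2 called the heme transporter Slc48a1 lower (-0.39, adjusted p = 0.0269), where limma gave -0.37 (adjusted p = 0.0514) and edgeR -0.37 (adjusted p = 0.0509), and limma called it with the size factors of DESeq2 (adjusted p = 0.0418). That gene was named after its values were seen. Nfe2l2, the NRF2 factor that drives antioxidant genes, had 347, 290 and 360 counts against 194 and 197 (0.61 ± 0.16, adjusted p = 0.024), a call lost on leaving out BcorΔE9-10 library 2 or 3 or BcorWT library 1, or with the GC correction (0.28, adjusted p = 0.293). Hmox1, the inducible heme oxygenase, had only 8 to 28 counts per library (-0.97, adjusted p = 0.266). The heme exporter Flvcr1 had -0.06 (adjusted p = 0.873), the heme-sensing repressor Bach1 -0.11 (adjusted p = 0.82) and the heme-regulated kinase Eif2ak1 0.01 (adjusted p = 0.976).

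Of the 15 genes listed for heme modification and hemoproteins of myeloid cells, all were tested, none rose and 3 fell in limma, beside 4.09% of all genes called lower. The median was -0.12, and -0.19 without BcorΔE9-10 library 1 and -0.22 without BcorWT library 1. Epx, the eosinophil peroxidase, had 65, 16 and 34 counts against 118 and 85 (-1.67 ± 0.341, adjusted p = 0.00513). The subunits of the phagocyte oxidase cytochrome Cybb (-0.55 ± 0.107, adjusted p = 0.00366) and Cyba (-0.37 ± 0.0973, adjusted p = 0.023) were lower, and the call of Cyba was lost on leaving out any 1 library other than BcorΔE9-10 library 2, with total counts alone (-0.23, adjusted p = 0.153) and with the GC correction (-0.26, adjusted p = 0.112). These 3 genes are also expressed in maturing granulocytes, which the depletion of CD11b and Gr-1 should remove and of whose 10 markers 6 fell in the same libraries. The part of that in their difference was not tested.

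Of the 14 genes listed as regulators of Alas1 and Alas2, 12 were tested, 5 rose and none fell in limma, with a median of 0.88, beside 6.02% of all genes called higher. The list is broad. Of those that rose, Ldb1, Tal1, Gata2 and Lmo2 belong to the complex of GATA and TAL1 proteins, and Tfam is a mitochondrial factor. Whether any of them acts on Alas1 in these cells was not tested. The difference between this list and the enzymes was not tested, and the list was written with the study and its results known, so its direction is not independent evidence. Ldb1, the adaptor that joins the GATA and TAL1 proteins, had 139, 133 and 188 counts against 13 and 23 (2.95 ± 0.429, adjusted p = 0.000455). Tal1 had 78, 61 and 96 against 37 and 16 (1.48 ± 0.38, adjusted p = 0.0202), a call lost without BcorΔE9-10 library 3 (1.39) or BcorWT library 2 (0.94). Gata2 rose by 1.05 ± 0.226 (adjusted p = 0.00726) and Lmo2, the bridging protein of the same complex, by 0.91 ± 0.155 (adjusted p = 0.00163).

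Gata1 itself, the main erythroid GATA factor and a driver of Alas2, had 4, 17 and 11 counts against 15 and 19 (-1.09 ± 0.635, adjusted p = 0.3), and its value ran from -0.44 without BcorΔE9-10 library 1 to -1.57 without BcorΔE9-10 library 2. The fifth gene of this list that rose, Tfam, a mitochondrial transcription factor named here after its value was seen, had 298, 204 and 225 counts against 97 and 146 (0.86 ± 0.222, adjusted p = 0.0215), with its call lost without BcorΔE9-10 library 1 or 2 (0.76 and 0.82) or BcorWT library 1 (0.52) and with the GC correction (0.53). Nrf1, whose motif is shown above in Alas1, had 213, 161 and 256 counts against 241 and 274 (-0.46 ± 0.165, adjusted p = 0.0917), also named after its value was seen. With the GC correction it passed the threshold (-0.54, adjusted p = 0.0467). Ppargc1a, the coactivator that induces Alas1 in fasted liver, had 0 counts in all 5 libraries.

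**Figure D5:**
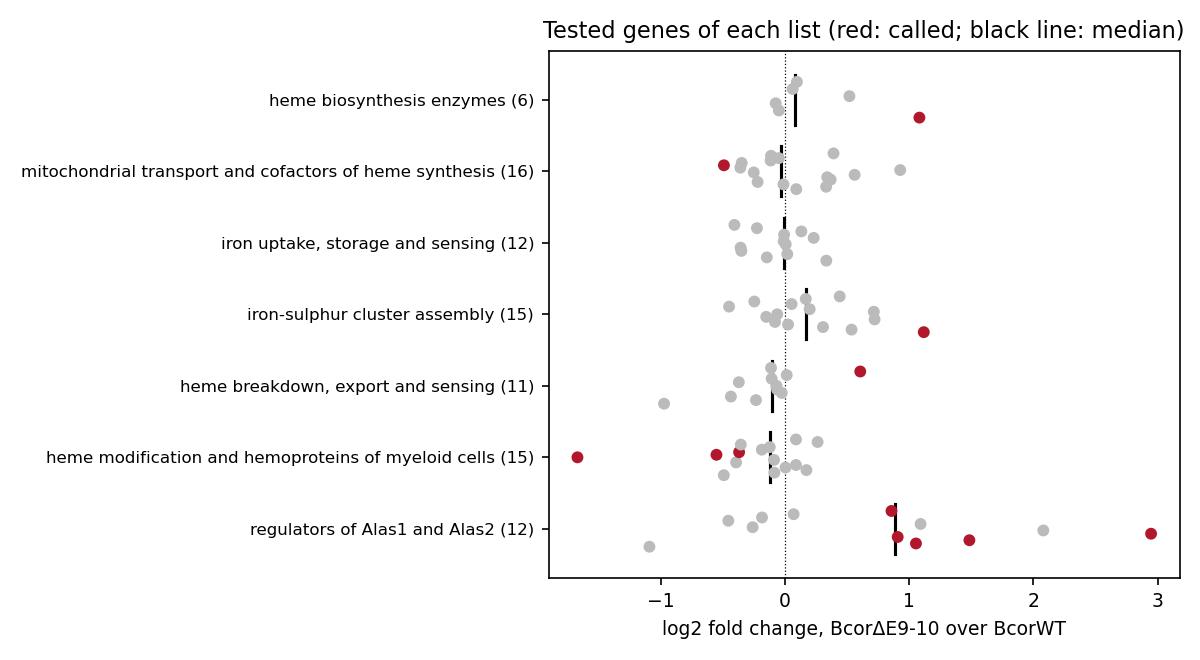
Each point is 1 tested gene, placed by its log2 fold change of BcorΔE9-10 over BcorWT (horizontal axis), in rows for the enzymes and the lists of related function with the number tested in brackets, red where called and with a black line at the median. The enzymes have a median of 0.08 with 1 called, and the genes listed as regulators a median of 0.88 with 5 called.

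The tested genes whose pattern over the 5 libraries was most like that of Alas1, by root mean square distance in mean-centred log2 CPM, were Ypel2 (0.0527), Mex3b (0.0928), Ccdc71l (0.0929), Zfp654 (0.1000) and Irf2bp2 (0.101). Each had its lowest value in BcorWT library 1 and its next lowest in BcorWT library 2. This order, the higher BcorΔE9-10 values and any calls follow from choosing the genes on these same libraries. They are not further evidence. Irf2bp2 had 42.5 and 71.3 CPM in BcorWT and 111 to 118 CPM in BcorΔE9-10 (1.05, adjusted p = 0.00112, and 0.67 without BcorWT library 1), and Ccdc71l was also called (0.99, adjusted p = 0.022). The adjusted p was 0.143 for Ypel2, 0.281 for Mex3b and 0.0512 for Zfp654. The call of Ccdc71l was lost on leaving out any 1 library other than BcorWT library 2, with a value of 0.57 when BcorWT library 1 was omitted (1.40 when library 2 was), and with the GC correction (0.63, adjusted p = 0.141). For Alas2 no such genes are named, because its 9 reads give no pattern.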

How the data were processed

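The members are defined by name and not by a value, but they and the lists were chosen with earlier results of these data known. Per the labels and methods, reads were trimmed with cutadapt, aligned to mm10 with HISAT2 and counted with featureCounts (Subread 1.5.0-p3). The authors deposited raw counts for each gene, without normalisation. The options for strand and for reads that align to several places are not given in the sources used here. Symbols were matched for 52403 of 52550 genes, and 95.24% of these had the same coordinates in GENCODE M21.

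Genes were filtered with filterByExpr of edgeR 4.0.16 (minimum count 10, minimum total 15), scaled by TMM and tested with limma 3.58.1 on voom values in R 4.3.3, two-sided, with Benjamini-Hochberg adjustment over 11766 genes and a threshold of 0.05. edgeR's quasi-likelihood test, DESeq2 1.42.0, other filters and scalings, sample weights, counts drawn down to equal depth, a GC correction, a replicate block and the omission of each library were the alternatives. Code was tested on simulated data. CPM are counts per 1e+06 TMM-scaled counts. Replicates are samples that the labels number separately. Where nothing states separate animals, p-values measure the spread between these samples only. Within groups, the libraries differed beyond sampling noise. Genes named were the 8 enzymes, Bcor, further genes of heme and red cell biology, at most 4 called genes per list with the largest fold changes, and the 5 genes most like Alas1. Predicted genes, pseudogenes and Riken clones were left out of the last group. Some genes are not reported here.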

Additional observations from a re-analysis of the deposited data

How the results depend on the processing

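Of 17 alternatives, Alas1 kept its direction in all and its call in 16, with log2 values of 0.56 to 1.59 when each library was left out in turn and adjusted p from 1.1e-09 to 0.0531 over all alternatives. Without BcorWT replicate 1 it lost its call (0.56), and with it the number of enzymes called went from 1 to 0 (0 to 1 over the left-out libraries). Fits without a BcorWT library assume that the lone one left varies like the BcorΔE9-10 libraries. Fits with the replicate block, described below, leave 1 residual degree of freedom, so their small p-values are not stronger evidence. Cpox (0.18 to 0.72) and Fech (0.0039 to 0.24) kept their sign and stayed uncalled in every alternative. The genes called over the whole table numbered 558 to 1454, and 558 to 1200 with a library left out (774 without BcorΔE9-10 replicate 2, 723 without replicate 3, 558 without BcorWT replicate 1). Scaling by total counts alone moved the median of all genes to 0.15 and the calls to 1210 higher and 197 lower. Alas2 had a value only without the filter, and Uros also in the fits without BcorWT replicate 1 (1.35, adjusted p = 0.647) or 2 (1.06, adjusted p = 0.645).

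Signs turned for genes whose main value was near 0, none of them called. With a library left out, some of these moved well away from 0 in both directions. Alad was 0.0100 with edgeR, 0.092 with total counts alone, 0.0019 with counts drawn down, 0.071 with the GC correction and 0.027 with the replicate block and GC correction, and -0.19 to 0.21 with a library left out. Urod was 0.069 with total counts alone, 0.012 with the GC correction, 0.074 with the block and GC correction, and -0.50 to 0.37 with a library left out. Ppox was -0.24 to 0.37 with a library left out. Slc25a38 was 0.13 with total counts alone, 0.0066 without predicted genes, 0.016 with the GC correction, 0.046 with the block, 0.076 with block and GC correction, and -0.12 to 0.036 with a library left out. Flvcr1 was 0.084 with total counts alone, 0.0397 with the block and -0.21 to 0.072 with a library left out. Bach1 was 0.032 with total counts alone and -0.34 to 0.13 with a library left out. Eif2ak1 was -0.014 with DESeq2, -0.0034 with DESeq2 size factors, -0.057 with counts drawn down and -0.14 to 0.16 with a library left out, and Slc25a37 was -0.054 to 0.24 with a library left out. The cause was not tested.

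The replicate numbers are shared by 2 pairs of libraries whose deviations correlated at 0.0573 and 0.0667 over 11766 genes, so they were not treated as pairs. Adding the replicate block called 1454 genes in place of 1189, and under it Alas1 had a log2 value of 1.05 (adjusted p = 5.8e-08) and Cpox 0.38 (adjusted p = 0.364). In the lists the block called 6 erythroid markers in place of 1, 8 neutrophil markers lower in place of 6 with Camp higher, and 3 progenitor markers in place of 1. It called 4 genes of the heme modification and hemoprotein list lower in place of 3 (Cox10 added). Of the basophil and mast cell genes it called 5 lower in place of 4 (Fcer1a added). Beyond the genes reported, it called Ftl1, Slc40a1 and Slc48a1 lower and Pf4 higher. With the block and the GC correction Itga2b was called too. Cox10, Fcer1a and Itga2b were named after their values were seen.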

Other observations

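Markers of other lineages were read from lists, some of them of lineages, such as the B-lymphoid, that the lineage depletion should remove. Of 7 basophil and mast cell genes, all tested, 1 rose (Gata2) and 4 fell (median log2 fold change -0.87, and -0.54 without BcorWT library 1), beside 6.02% of all genes called higher and 4.09% called lower. Among the latter, Prss34 and Mcpt8, basophil proteases, fell by 1.24 and 1.08 on the log2 scale (adjusted p = 0.00017 and 0.00111, limma). Hdc, the histamine-forming enzyme, named after its value was seen, fell by 0.57 (adjusted p = 0.018), a call lost without BcorWT library 1 and with total counts alone. The fall of Cpa3, a mast cell carboxypeptidase, by 0.87 (adjusted p = 0.0272) did not pass without BcorΔE9-10 library 1 or 3 or without BcorWT library 1 (-0.35, adjusted p = 0.396). Limma, edgeR and DESeq2 called no gene among the 5 megakaryocyte, 7 monocyte and macrophage and 5 B-lymphoid markers tested, with an unadjusted p under 0.05 in limma for 1, 2 and 1 of them. Some other settings of limma called genes of these lists, all named here after their values were seen: Pf4, a platelet chemokine, higher with total counts alone, and of the monocyte and macrophage list F13a1 lower with the GC correction, C1qa lower without BcorWT library 1 and Ccr2 lower without BcorWT library 2. The medians rested on single libraries. That of the megakaryocyte genes was 0.48, and 0.76 without BcorWT library 1 and 0.022 without BcorWT library 2. The monocyte and macrophage median was -0.25, and -0.43 without BcorΔE9-10 library 3 and -0.40 without BcorΔE9-10 library 2. The B-lymphoid median was 1.15, and 0.25 without BcorΔE9-10 library 3, 0.56 without BcorΔE9-10 library 2, 0.72 without BcorWT library 2 and 1.72 without BcorΔE9-10 library 1. Of the 8 progenitor markers of the gate 1 was called in limma, Kit, higher, beside 6.02% of all genes called higher. Ctsg and Prtn3, granule proteases named after their values were seen, passed in some other settings. Ctsg was higher with total counts alone, without the filter and without BcorWT library 2, and Prtn3 was lower without BcorWT library 1. Of the 5 stem cell markers 1 had enough counts to be tested.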
